A study of Mus musculus with 8 samples.

Results

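Sox10, S100b, Fabp7, Apoe, Npy and Frzb mark the olfactory ensheathing glia of the mouse, and these 6 genes were followed through early and late polysomes of the main olfactory epithelium. They were taken by symbol from the deposited table, where all 6 were found among 21765 listed genes, and all 6 passed the filter on low values that left 16097 genes for testing. Olfactory ensheathing glia wrap bundles of olfactory axons from the epithelium to the bulb. They arise from the neural crest under the transcription factor Sox10, and they are known for clearing debris and for letting axons of newborn sensory neurons grow into the central nervous system throughout life. None of the 6 genes is restricted to these cells: Apoe is also made by macrophages, Sox10 and S100b by Schwann cells, and Npy by some microvillous cells of the epithelium.

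Polysome gradients sort mRNA by its load of ribosomes, and a transcript in the late, denser fractions as a rule carries more ribosomes than one in the early fractions. Lysates of epithelium treated with 100 µg/mL cycloheximide, which holds ribosomes in place, were spun through sucrose, and RNA was pooled from fractions 27 to 34 (early) and from fractions 35 to 42 (late). The wild-type (WT) group held mice labelled Mex3a flox/flox or Mex3a flox/+ with no Cre named, so it can mix 2 genotypes at the locus of Mex3a, an RNA-binding protein gene. The conditional knockout (cKO) group was Mex3a flox/flox with Cre. Age and sex are not given in the labels used here. There were 2 libraries for each of the 4 combinations of genotype and fraction, from 2 WT and 2 cKO lysates, and by their names each lysate gave 1 early and 1 late library. The WT early library of lysate 2 carries the cKO genotype label against its title and was treated as WT.

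Values are TPM, a transcript's share of its own library corrected for length. A difference between late and early libraries is therefore a change in share between 2 pools of RNA. It is not a count of ribosomes on a transcript. Changes printed without a fold are differences of log2(scaled TPM + 1). Whole reads inferred from the steps of the TPM values summed to between 7776792 and 12771079 per library, lowest in the late library of cKO lysate 2. Mex3a lay at 93.2 to 116 TPM over the 4 WT libraries, the conflicting one included, and at 11.1 to 19.8 TPM over the 4 cKO libraries. None of 10 olfactory neuron markers and 18 other glial lineage genes was at 0 throughout a group. This cannot check the tissue label, since each library had 17852 to 18966 genes above 0. The olfactory neuron markers summed to 7235 to 12134 scaled TPM per library. The tissue label itself was not tested. The other glial genes summed to 388 to 396 scaled TPM in early and 443 to 452 scaled TPM in late libraries. Scaled TPM is the deposited value divided by the median-ratio factor of its library.

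In both genotypes the 6 genes split by fraction (shown in the plot of the 6 genes by library). Apoe, Sox10 and Frzb had larger shares of late polysomes, S100b and Npy had larger shares of early polysomes, and Fabp7 was nearly level. Averaged over the genotypes, 3 of the 6 passed the test as higher in late libraries and 2 as lower (limma, Benjamini-Hochberg adjusted p under 0.05 over all genes tested). By the same rule 68.9% of all genes tested were called, 34.2% as higher and 34.8% as lower, so being called is common in this tissue and does not set the 6 genes apart. The median change of the 6 was 0.21 on the log2 scale, against -0.014 over all genes tested. Between cKO and WT, which are compared further on, fewer cells of a type and less RNA per cell cannot be told apart in a whole epithelium.

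**Figure D1:**
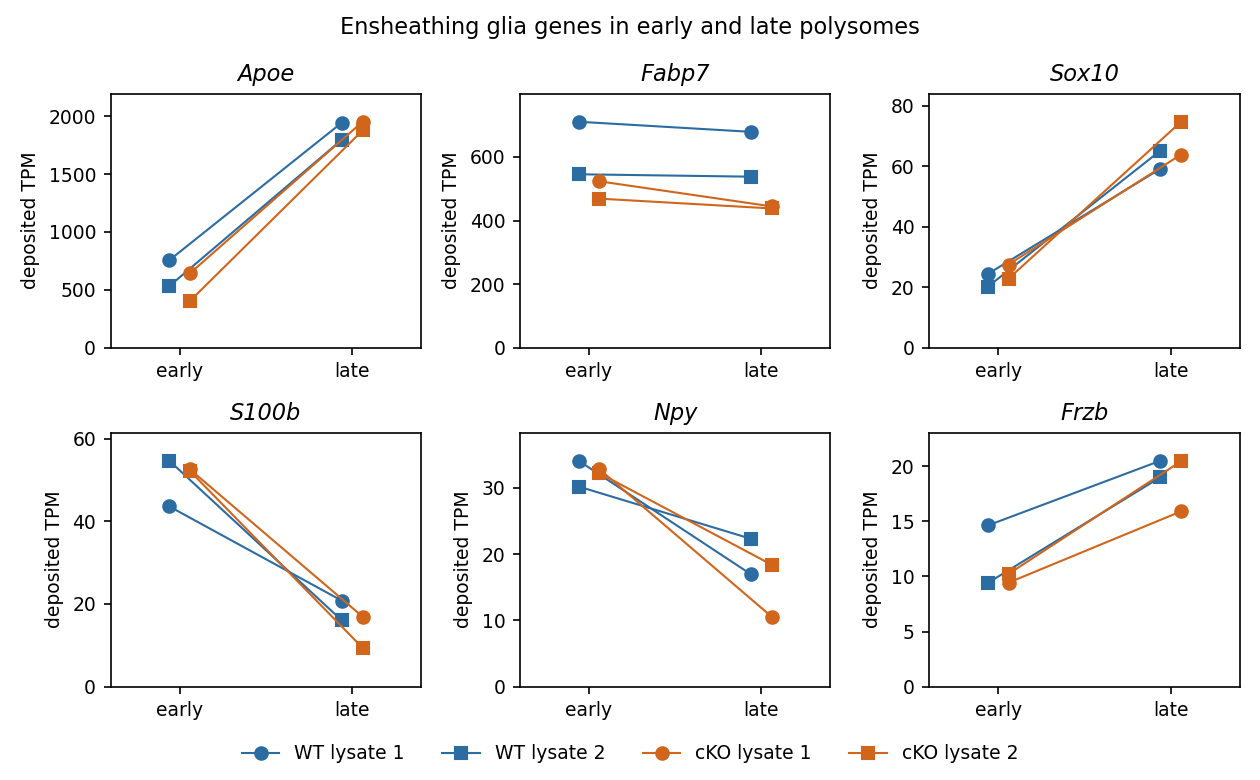
Deposited TPM (vertical axes, from 0) of the 6 ensheathing glia genes in early and late polysomes, 1 point per library, with a line joining the 2 libraries of a lysate (blue WT, orange cKO, circles lysate 1, squares lysate 2). All 4 lines rise for Apoe, Sox10 and Frzb, all 4 fall for S100b and Npy, and those of Fabp7 are nearly flat.

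The 6 reading frames run from 279 to 1401 bases. To show where each frame begins, the 30 bases around the start codon are printed here 5′ to 3′ from the GRCm38 genome (the mm10 build) with GENCODE gene models, with the start codon in capitals. Fabp5, a paralogue that is compared with Fabp7 further on, is included.
Sox10: agcgacATGgccgaggaacaagacctatca
S100b: cccgggATGtccgagctggagaaggccatg
Fabp7: ttaaggATGgtagatgctttctgcgcaacc
Apoe: gcgaagATGaaggctctgtgggccgtgctg
Npy: gccacgATGctaggtaacaagcgaatgggg
Frzb: gggaccATGgtctgctgcggcccgggacgg
Fabp5: cccaccATGgccagtcttaaggatctcgaa
A purine stood 3 bases before the start codon in 6 of 6 genes, and in 85.6% of the 14376 tested genes with a model long enough to read it. A G followed the start codon in 3 of 6 (Sox10, Fabp7 and Frzb), against 52.4% of those genes, and Apoe, Npy and S100b lack that G.

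Sox10 encodes the SoxE transcription factor that specifies and maintains neural crest glia. It lies on the minus strand of chromosome 15 at chr15:79154908-79165240. In WT its deposited TPM was 24.4 and 20.2 in the early libraries of lysates 1 and 2, and 59.2 and 65.2 in the late ones. The cKO lysates gave 27.5 and 22.8 TPM in early polysomes against 63.9 and 74.8 TPM in late polysomes. Every late library lay above every early one, whatever the genotype. On 263 to 772 inferred reads per library, Sox10 rose 2.49-fold from early to late polysomes (log2 1.32, SE 0.092, limma adjusted p = 1.93e-05). By lysate the log2 change was 1.16 (lysate 1) and 1.52 (lysate 2) for WT, against 1.10 and 1.50 for cKO, so lysate 2 showed the larger shift in each genotype.

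The relatives and partner factors of Sox10 had changes from -0.27 to 1.06, below its own. Of the 8 tested, 4 rose in late libraries, 1 fell and 3 did not pass, and the list's median change was 0.34. Sox8, a SoxE paralogue, rose by 1.06 (SE 0.10, limma adjusted p = 4.71e-05) from 4.63 to 6.94 TPM in early libraries to 12.9 to 16 TPM in late ones. Sox9, the third SoxE gene and also a gland marker, rose by 0.74 (SE 0.082, limma adjusted p = 8.56e-05). Foxd3, a neural crest factor, rose by 1.04 (SE 0.14, limma adjusted p = 0.00022). Tfap2b changed by -0.25 (limma adjusted p = 0.0314), a call that 9 of 15 alternatives ended, TPM as deposited and the replicate block among them.

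S100b encodes a small calcium-binding protein of the cytoplasm, long used as a stain for glia. It lies on the plus strand at chr10:76253853-76261159, and its 3′ end overlaps Dip2a on the opposite strand, which averaged 22.2 TPM here. The kit keeps strand, but whether the counting used it is not stated, so reads of the overlap cannot be assigned with certainty. In WT, S100b was at 43.6 and 54.6 TPM in early polysomes and at 20.8 and 16 TPM in late polysomes. The cKO lysates gave 52.5 and 52.1 TPM early and 16.9 and 9.38 TPM late. All 4 early libraries lay above all 4 late ones, and the lowest late value came from cKO lysate 2, on 42 inferred reads. S100b fell 3.45-fold from early to late polysomes (log2 -1.78, SE 0.18, limma adjusted p = 5.98e-05), the largest fall of the 6 genes. Its whole reading frame is printed because it is the shortest of the 6, at 279 bases or 93 codons with the stop (start and stop in capitals).
S100b coding sequence: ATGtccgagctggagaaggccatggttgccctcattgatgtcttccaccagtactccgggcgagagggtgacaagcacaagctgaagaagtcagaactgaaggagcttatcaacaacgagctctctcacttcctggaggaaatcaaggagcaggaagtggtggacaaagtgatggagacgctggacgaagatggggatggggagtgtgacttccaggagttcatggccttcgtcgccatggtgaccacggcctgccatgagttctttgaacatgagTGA

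The rest of the S100 list moved the same way. It holds 13 other S100 genes and S100pbp, which encodes a protein that binds an S100 protein. All 14 fell in late polysomes, with a median of -1.66 and a range of -1.96 to -0.48, and 14 of 14 fell under each of the 15 alternatives. S100a1 went from 515 to 718 TPM in early libraries to 130 to 211 in late (log2 -1.96, SE 0.16, limma adjusted p = 2.83e-05). S100a5, an abundant gene of olfactory sensory neurons, went from 5167 to 5769 TPM to 1259 to 2215 TPM (log2 -1.73). S100a9, a neutrophil gene, fell by 1.86 on the log2 scale. The fall of S100b lay within the range of this list, which includes genes of other cell types such as S100a5 and S100a9.

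Fabp7 encodes brain lipid-binding protein, which carries fatty acids inside glia and radial glia. It lies on the plus strand at chr10:57784881-57788450. The WT lysates gave 711 and 546 TPM in early polysomes and 679 and 538 TPM in late polysomes. The cKO lysates gave 523 and 469 TPM early and 444 and 438 TPM late. Early and late libraries overlapped, and the 4 lysates spread 1.52-fold in early and 1.55-fold in late libraries, more than the 2 fractions of any lysate differed. On 900 to 2626 inferred reads per library, the change from early to late was -0.23 (SE 0.12, limma adjusted p = 0.112), and its sign turned under quantile normalization (0.062). It was negative in 4 of 4 lysates, at -0.15 for both WT lysates and at -0.32 and -0.27 for the cKO lysates. With the lysate as a replicate block the same change passed the threshold (limma adjusted p = 0.0456), as it did without the WT early library of lysate 2 (-0.32, limma adjusted p = 0.0444).

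Relatives of Fabp7 with nearly its coding length had lower values. All 7 tested genes of the list of other fatty acid, retinol and retinoic acid binding proteins fell in late polysomes, with a median of -1.09 and a range of -1.48 to -0.71. That count was 5 to 7 when each library was left out, with 5 without the WT early library of lysate 1 or the cKO early library of lysate 2, where Fabp3 and Rbp7 lost their calls. Fabp5, the epidermal-type paralogue with a frame of 408 bases against 399 in Fabp7, was at 141 to 194 TPM in early and 60.3 to 80.1 TPM in late libraries (log2 -1.36, SE 0.11, limma adjusted p = 2.45e-05). The late minus early change of Fabp7 exceeded that of Fabp5 in 4 of 4 lysates, by 1.20, 1.28, 0.68 and 1.36, with a mean of 1.13 ± 0.31 (SD, n = 4 lysates). The exact two-sided sign-flip permutation p was 0.125, which is the smallest that 4 lysates allow. Fabp3 (-0.71) and Fabp4 (-0.75), both low in this tissue, varied widely between lysates, with Fabp3 at 0.25 in cKO lysate 1. Fabp3 also lost its call under the replicate block (limma adjusted p = 0.0522).

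Apoe encodes the lipid-carrying apolipoprotein E, secreted by glia and macrophages. It lies on the minus strand at chr7:19696109-19699188. In WT it was at 756 and 532 TPM in early polysomes and at 1945 and 1797 TPM in late polysomes. The cKO lysates gave 643 and 404 TPM early and 1952 and 1877 TPM late. The 4 late libraries spread 1.09-fold and lay far above all early ones, which spread 1.87-fold. On 2815 to 13042 inferred reads per library, Apoe rose 3.06-fold (log2 1.61, SE 0.16, limma adjusted p = 5.84e-05), the largest rise of the 6. Lysate 2 again shifted more than lysate 1, by 1.62 against 1.27 in WT and by 2.04 against 1.51 in cKO. This was not particular to Apoe and Sox10. In the shortest decile of genes by coding length, the median change was -1.22 against -0.91 in WT and -1.35 against -1.01 in cKO. In the longest it was 0.58 against 0.43 in WT and 0.56 against 0.42 in cKO. S100b and Frzb also shifted more in lysate 2, while Npy and Fabp7 shifted less. For Npy the change was -0.55 against -1.05 in WT and -0.95 against -1.64 in cKO.

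Of 14 other genes of lipid transport around ApoE, 8 rose in late polysomes, 3 fell and 3 did not pass. Clu, which encodes another secreted apolipoprotein of glia, rose by 1.19 (SE 0.12, limma adjusted p = 6.51e-05), from 246 to 381 TPM in early libraries to 746 to 788 TPM in late. Abcg1, a cholesterol exporter, rose by 1.14 (SE 0.089, limma adjusted p = 2.50e-05), and Pltp, a phospholipid transfer protein gene, by 0.99 (SE 0.15, limma adjusted p = 0.000407). The receptor gene Lrp1 changed by 0.34 and did not pass (limma adjusted p = 0.0653). Apoc1, a short apolipoprotein gene beside Apoe, went the other way, falling by 1.55 on the log2 scale (SE 0.14, limma adjusted p = 4.10e-05). Nr1h2, which encodes a liver X receptor, fell by 0.94.

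Npy encodes neuropeptide Y, a secreted peptide cut from a short precursor, which is high in ensheathing glia during development. It lies on the plus strand at chr6:49822710-49829507. In WT it was at 34.1 and 30.2 TPM in early polysomes and at 16.9 and 22.3 TPM in late polysomes. The cKO lysates gave 32.8 and 32.2 TPM early and 10.5 and 18.4 TPM late. The early libraries lay close together and above all late ones, which were less even and rested on 21 to 53 inferred reads. Npy fell 2.06-fold (log2 -1.05, SE 0.15, limma adjusted p = 0.000395). Within WT alone the fall of 0.80 (limma adjusted p = 0.0144) lost its call without the early library of lysate 1 (-0.72, limma adjusted p = 0.0728) or the late library of lysate 1 (-0.62, limma adjusted p = 0.0942). The whole frame is printed to set it beside S100b, with which it shares its length class but not the size of its fall (294 bases, start and stop in capitals).
Npy coding sequence: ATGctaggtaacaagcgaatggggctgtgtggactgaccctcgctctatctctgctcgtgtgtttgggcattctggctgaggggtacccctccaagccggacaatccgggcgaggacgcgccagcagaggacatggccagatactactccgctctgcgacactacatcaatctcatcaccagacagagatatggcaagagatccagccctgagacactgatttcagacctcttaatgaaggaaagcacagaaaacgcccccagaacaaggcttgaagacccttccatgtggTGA

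Genes around neuropeptide Y were not lower in late polysomes. Of 6 tested genes of the neuropeptide Y system, 3 rose in late polysomes and 3 did not pass, with 0 lower by limma's unadjusted p under 0.05 and 0 by voom on inferred reads. Pcsk2, a prohormone convertase gene, rose by 0.68 (SE 0.13, limma adjusted p = 0.00196), and Cpe, the carboxypeptidase E gene, rose by 0.54 (SE 0.080, limma adjusted p = 0.000385). Pam, the gene of the amidating enzyme, changed by 0.059 and did not pass. Among the receptors Npy1r was low, at 2.77 to 8.02 TPM over all libraries, and rose by 0.55 (SE 0.15, limma adjusted p = 0.011). Npy2r, Npy4r and Npy5r stayed under the level tested, at 0 to 0.633 TPM, and Npy6r was listed at 0 in all 8 libraries.

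Frzb encodes a secreted frizzled-related protein that binds Wnt ligands outside the cell. It lies on the minus strand at chr2:80411970-80447625. It was the lowest of the 6 in early polysomes, at 14.6 and 9.41 TPM for the WT lysates and 9.43 and 10.2 TPM for the cKO lysates. In late polysomes it reached 20.5 and 19.0 TPM (WT) and 15.9 and 20.4 TPM (cKO). The late libraries lay above all early ones, with the highest early value (WT lysate 1) close to the lowest late one (cKO lysate 1). On 131 to 253 inferred reads per library, Frzb rose 1.56-fold (log2 0.65, SE 0.14, limma adjusted p = 0.00323). Within WT the rise of 0.60 (limma adjusted p = 0.0314) depended on single libraries. It was 0.31 without the WT early library of lysate 2 (limma adjusted p = 0.219), and the call was also lost without the late library of lysate 1 (limma adjusted p = 0.132) or of lysate 2 (limma adjusted p = 0.0798), with no filter on low values (0.0574) and with only the 4 WT libraries in the fit (0.0522). Within cKO the rise of 0.69 (limma adjusted p = 0.016) lost its call without the early library of lysate 1 (limma adjusted p = 0.0745) or the late library of lysate 2 (limma adjusted p = 0.0984).

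Most of the Wnt receptors and antagonists listed beside Frzb moved in its direction. Of 20 tested, 12 rose in late polysomes, 1 fell and 7 did not pass, with a median change of 0.46. Fzd7 rose by 0.94 (SE 0.092, limma adjusted p = 5.00e-05) and Fzd8 by 0.85 (SE 0.099, limma adjusted p = 0.000114), both genes of Wnt receptors. The antagonist gene Dkk2 rose by 0.88 (SE 0.11, limma adjusted p = 0.000161). Of Frzb's own paralogues, Sfrp1 rose by 0.70 and Sfrp4 by 0.53, while Sfrp2 (-0.12) and Sfrp5 (0.30) did not pass. Fzd3 was the 1 gene that fell, by 0.62 on the log2 scale.

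A longer reading frame has room for more ribosomes, so each gene was set against genes of like coding length (shown in the plot of polysome position against coding length). Over the 14687 tested genes with a coding model, the late minus early change and coding length had a Spearman correlation of 0.636, given as a description, since all genes share the same libraries. In the shortest decile of genes by coding length the median change was -1.12, with 10% of genes under -1.59 and 10% over -0.45. S100b, Npy and Fabp7 all belong to that decile. S100b, at 279 bases, was lower than its decile's median by 0.66, and 2.79% of the decile lay lower still. Npy, at 294 bases, was 0.076 above the median, with 56.6% of the decile lower. Fabp7, at 399 bases, was 0.90 above it, with 95.0% of the decile lower.

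The 3 genes that rose did so at coding lengths where the median change was between -0.27 and 0.20. Apoe, with 936 bases in the third decile (median -0.27), was 1.88 above its decile's median, and 99.8% of the decile had a lower change. Frzb, with 972 bases in the fourth decile (median -0.16), was 0.81 above, with 90.7% lower. Sox10, with 1401 bases in the sixth decile (median 0.20), was 1.12 above, with 98.4% lower. Thus 5 of the 6 lay above the median of their decile and S100b lay below. The same count was 15 of 17 for the other glial genes, 1 of 14 for the other S100 list genes, 4 of 7 for the other lipid-binding protein genes, 9 of 10 for macrophage markers and 7 of 7 for sustentacular cell markers, so a place above the decile's median was not particular to glial genes.

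**Figure D2:**
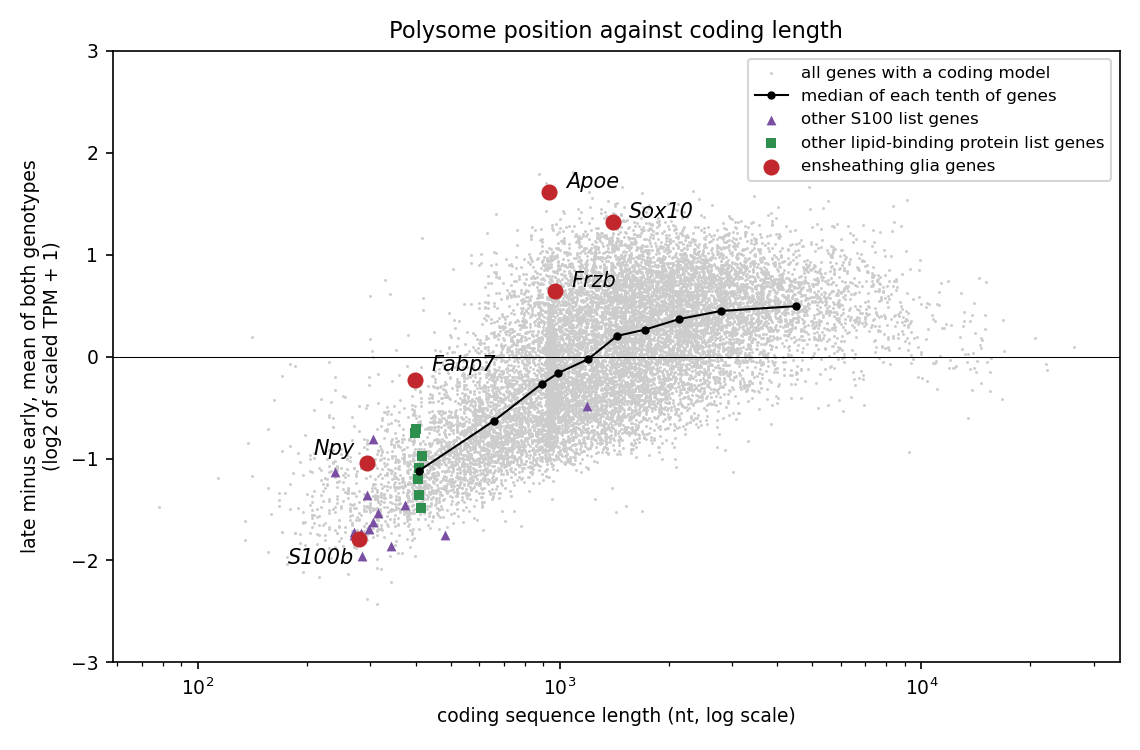
Late minus early change (vertical axis, log2 of scaled TPM + 1, mean of both genotypes) against coding sequence length in nucleotides (horizontal log axis) for the 14687 tested genes with a coding model. The black line joins the medians of the deciles of genes by length. S100b lies below it among the S100 genes, Npy close to it, and Fabp7, Frzb, Apoe and Sox10 above it.

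Other glial lineage genes ran from -1.22 to 1.18, inside the range of the 6 (shown in the plot of glial genes ranked by change). Of the 17 tested, 9 rose in late polysomes, 4 fell and 4 did not pass, and the median change was 0.42. Erbb3, the neuregulin receptor gene of neural crest glia, rose by 1.18 (SE 0.12, limma adjusted p = 6.39e-05) from 24.7 to 39.0 TPM in early libraries to 79.8 to 86.2 in late. Gpr37l1, a glial receptor gene, rose by 1.06. Mia (-1.22), the small heat shock gene Cryab (-0.86) and the myelin gene Pmp22 (-0.54) fell. Ngfr, Cdh19 and Egr2 did not pass, with values from -0.030 to 0.42. Prss56 was too low to be tested.

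**Figure D3:**
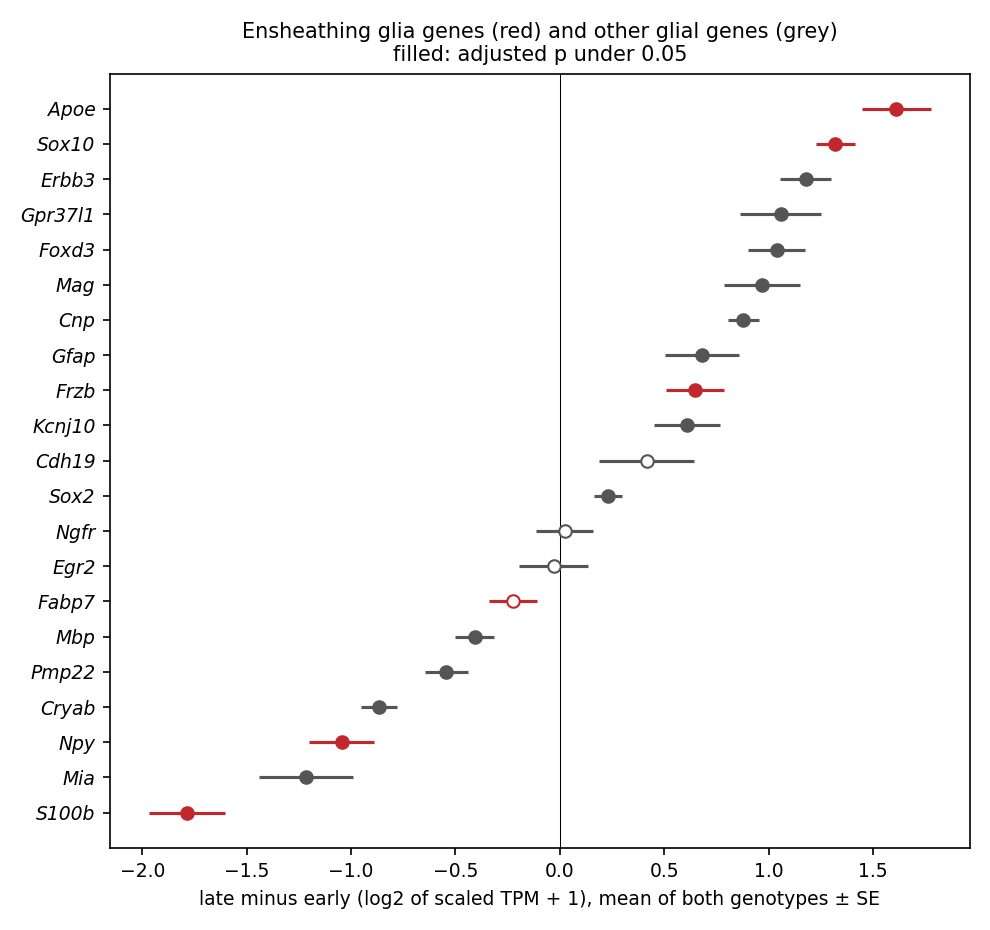
Late minus early change (horizontal axis, log2 of scaled TPM + 1, mean of both genotypes, bars ± 1 SE) of the 6 ensheathing glia genes (red) and 15 of the 17 other glial lineage genes tested (grey), with filled points where the adjusted p was under 0.05. Apoe and Sox10 stand at the top, with Erbb3 next at 1.18, and S100b at the bottom.

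The order of the 6 genes by level differed between fractions. In early libraries of each genotype Apoe and Fabp7 overlapped at the top, followed by S100b, Npy, Sox10 and Frzb, with no overlap between neighbours from Fabp7 down. In late libraries Apoe stood above Fabp7, Fabp7 above Sox10 and Sox10 above the rest, while Frzb, Npy and S100b overlapped. S100b was above Sox10 in 4 of 8 libraries, the 4 early ones. In WT the mean scaled TPM of S100b was 50.2 ± 8.44 early and 17.4 ± 3.41 late, and that of Sox10 was 22.8 ± 2.85 early and 58.9 ± 3.36 late (SD, n = 2 each).

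The shift was found in each genotype on its own. In WT, 5 of the 6 passed the test (54.8% of all genes tested), and in cKO 5 of the 6 passed (58% of all genes), with the same 3 higher and the same 2 lower. Late minus early changes in WT were 1.45 for Apoe, 1.34 for Sox10, -0.80 for Npy and -1.48 for S100b. In cKO they were 1.77, 1.30, -1.29 and -2.09 in the same order. Early and late libraries did not overlap for 5 of the 6 genes, all but Fabp7, and for 62.5% of all genes tested. The difference between genotypes in this shift passed for 0 of 6 genes (limma interaction, 0.00621% of all genes). It reached an unadjusted p under 0.05 in 0 of 6 (2.80% of all genes) and passed in 0 of 6 by voom on inferred reads. Its largest values were -0.62 for S100b (SE 0.36), which ran from -1.04 to -0.20 when each library was left out, and -0.49 for Npy (SE 0.31), which ran from -0.84 to -0.14.

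No ensheathing glia gene passed the test between cKO and WT. The count was 0 of 6 in early polysomes (0.0435% of all genes passed), 0 of 6 in late polysomes (0.0124%) and 0 of 6 on lysate means, the average of a lysate's early and late log2 values (0.00621%). By limma's unadjusted p under 0.05 the counts were 0 in early polysomes (6.63% of all genes), 1 in late (9.32%) and 2 on lysate means (11.3%). With voom on inferred reads 0 of 6 passed in each. With 2 lysates per genotype the standard errors ran from 0.071 to 0.16 on lysate means, and a p above the threshold does not show that levels were equal.

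Fabp7 and Sox10 had the lowest unadjusted p on lysate means, at 0.0387 and 0.0288 (limma). With voom on inferred reads 1 of the 6 genes reached an unadjusted p under 0.05 there. Fabp7 was lower in cKO by 0.42 on the log2 scale in late polysomes (SE 0.16, limma adjusted p = 0.489) and by 0.35 on lysate means (SE 0.13, limma adjusted p = 0.42). When each library was left out these ran from -0.59 to -0.24 in late polysomes and from -0.53 to -0.17 on lysate means. In early polysomes its mean scaled TPM was 641 ± 114 for WT and 527 ± 33.0 for cKO, and in late polysomes 577 ± 101 for WT and 428 ± 16 for cKO (SD, n = 2 each). The cKO and WT libraries of Fabp7 did not overlap in either fraction, which held for 37.1% of all genes tested in early and 40.7% in late polysomes. Sox10 was higher in cKO by 0.21 on lysate means (SE 0.071, limma adjusted p = 0.403), and its genotypes did not overlap in late polysomes. Over all alternatives its difference on lysate means ran from 0.11 to 0.24. The other 4 genes lay between -0.17 and -0.094 on lysate means, with standard errors of 0.13 to 0.16, and overlapped between genotypes in both fractions. In late polysomes the differences of S100b (-0.46, SE 0.26, limma adjusted p = 0.616) and Npy (-0.42, SE 0.22, limma adjusted p = 0.595) were of the size of that of Fabp7. When each library was left out they ran from -0.88 to -0.043 for S100b and from -0.77 to -0.070 for Npy.

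**Figure D4:**
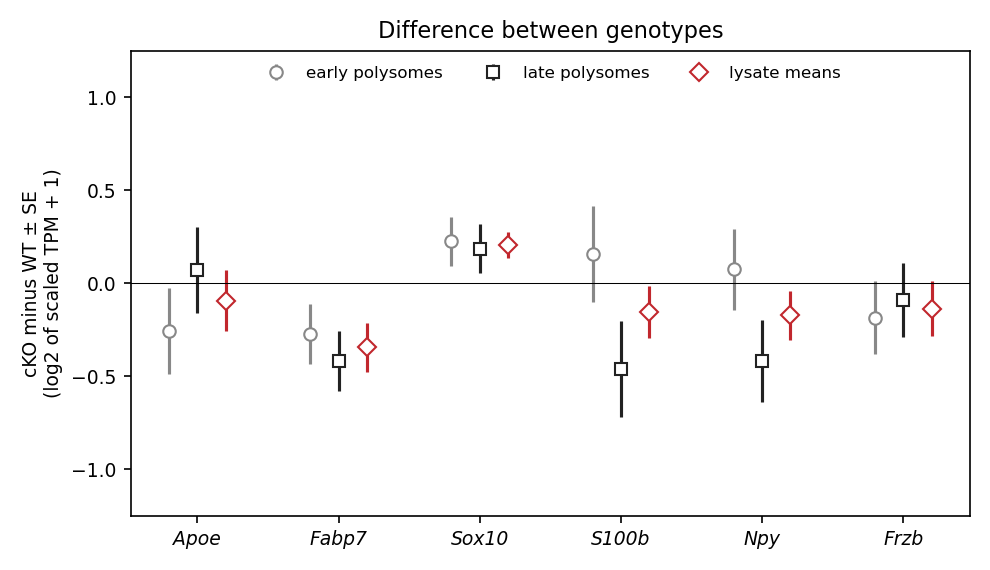
Difference between cKO and WT (vertical axis, log2 of scaled TPM + 1, bars ± 1 SE) of the 6 ensheathing glia genes in early polysomes (circles), late polysomes (squares) and on lysate means (diamonds). Fabp7 lies below 0 and Sox10 above 0 in all 3, and 0 of 6 genes passed the test in any.

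Markers of other cells that can make these transcripts were read beside that comparison. The 10 macrophage markers summed to 272 to 306 scaled TPM over the WT libraries and to 362 to 376 over the cKO libraries. Each genotype's libraries are 2 fractions of 2 lysates. The lysozyme gene Lyz2 differed most on lysate means, with mean scaled TPM of 83.4 (WT) and 135 (cKO) early and 64.2 and 94.1 late. In late polysomes the log2 difference was larger for C1qb, at 23.1 (WT) and 37.7 (cKO). On lysate means 9 of 10 were higher in cKO and 0 of 10 passed the test (limma). An unadjusted p under 0.05 was reached by 3 of 10, against 11.3% of all genes on lysate means. With voom on inferred reads 1 of 10 passed, Lyz2. Apoe, also a macrophage gene, differed between genotypes by -0.094 on lysate means (SE 0.16). In early polysomes the 8 microvillous cell markers summed to 75.8 to 89.1 scaled TPM for WT and 98.3 to 101 for cKO. In late polysomes they summed to 108 to 110 scaled TPM for WT and 136 to 145 for cKO. Of these markers 0 of 8 passed the test on lysate means (limma, 2 at an unadjusted p under 0.05) and 0 of 8 by voom. Npy, also known from microvillous cells, differed by -0.17 (SE 0.13). The sums of the 18 other glial genes overlapped between genotypes in scaled TPM, at 390 to 396 for WT and 388 to 395 for cKO in early polysomes. Their sums in deposited TPM were not compared. Sox2 (mean 91.7 for WT and 95.2 for cKO) and Cryab (88.6 and 83.6) were the largest parts of the early sums. Such sums do not measure how many glia were present. On lysate means 0 of the 17 other glial genes tested passed by limma (1 at an unadjusted p under 0.05) and 0 by voom. The part of these marker levels in the values of the 6 genes was not tested.

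Finally, the genes whose pattern over the 8 libraries was most like each of the 6 were ranked by Pearson's r among 12813 genes with a mean of at least 5 TPM. These correlations are descriptions over libraries that share lysates and are split mainly by fraction. Apoe was closest to Clu, Ezr and Urgcp (0.999 each), and Sox10 to Pcolce, Ccdc102a and Trim25 (0.999 each). S100b was closest to Paip2b (0.999), Uqcr11 and Ndufs6 (0.998 each). Frzb was closest to Ccdc137 (0.991), Enpp2 (0.982) and Wdr33 (0.980), and Npy to Actr3b (0.981), Zfp689 (0.979) and Thap7 (0.972). For Fabp7 the values were lower, with Sncb at 0.961, Sptbn1 at 0.958 and Ahi1 at 0.949. An r over 0.95 was reached by 2126 genes with Apoe, 1696 with Sox10 and 1638 with S100b, but by 59 with Frzb, 38 with Npy and 2 with Fabp7. Among the 6 themselves r was 0.957 for Sox10 and Apoe, 0.814 for S100b and Npy, and -0.963 for S100b and Sox10.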

How the data were processed

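RNA of early and late polysomes from the main olfactory epithelium was sequenced in 8 libraries made with a stranded low-input total RNA kit, per the labels' protocols. The authors deposited 1 table of TPM values for 21765 gene symbols. The submitters' processing notes name FastQC, cutadapt, STAR, DESeq2 and the mm10 build, without roles. The annotation and the counting method are not given in the sources used here. The series' design text describes sorted cells, while the labels of these samples describe tissue lysates, and the sample labels were followed. The Cre line and the single values of some genes in the lists are not reported here.

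Libraries were scaled with the median-ratio method, with factors of 0.930 to 1.06. A value of 1 was added before taking log2, and limma 3.58.1 (R 4.3.3) compared the groups over the 16097 genes with a mean of at least 1 TPM. The 4 groups were fitted together with a mean-variance trend. Tests were two-sided with Benjamini-Hochberg adjustment and a threshold of 0.05, and fold changes on this scale understate the change of low genes. Replicates are lysates, and nothing says whether a lysate came from 1 animal. Genotype was also tested on lysate means. Whole reads were inferred from TPM steps for all 19783 genes above 0 in at least 2 libraries (tolerance 0.001) and give the depth. The code was also run on simulated data with few changed genes and independent libraries. Late against early differs from that setting, since most genes were called and libraries share lysates. The simulation does not show how the test behaves there.

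Early and late libraries share a lysate by their library names. Deviations from the group means correlated at 0.0864 between the early and late libraries of WT lysates and at 0.0503 in cKO.

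The 6 genes and 14 lists of related genes and cell markers were chosen with earlier results of these data known. Named list genes were up to 3 with the largest rise and 3 with the largest fall among those past the threshold with a mean of at least 5 TPM, plus paralogues and receptors of the 6. Others (Pam, Lrp1, S100a5 and the glial genes that did not pass) were named after their values were seen. Coding lengths and sequences came from GENCODE models on GRCm38, 1 transcript per gene, which covered 91.2% of the genes tested. Some models are incomplete, such as that of Arhgap26, whose 512 bases are not a whole number of codons. A gene with such a model can fall in too short a decile, and the effect on the deciles was not tested.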

Additional observations from a re-analysis of the deposited data

How the results depend on the processing

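Alternatives were a pseudocount of 0.1, no filter, TPM as deposited, quantile normalization, no trend, a replicate block, only the 4 libraries compared, voom on inferred reads, and leaving out each library. Of the counts of the 6 genes past the threshold, 108 of 109 alternative values lay within 1.5 times the main count or, where that was 0, stayed at 0. The main count was 0 in the interaction and in every comparison of cKO with WT, so many of these values are 0 against 0. The late against early count in WT was 3 to 5 when each library was left out, with 3 without the late library of WT lysate 1, where Npy and Frzb lost their calls. The replicate block was the lysate for late against early and for the interaction. For cKO against WT, lysate means included, it was the number that a WT and a cKO lysate have in common. Under the replicate block 6 genes passed in late against early over both genotypes and 0 of 6 in each genotype comparison, and the block changed no other call of the 6. WT and cKO lysates of the same number also follow each other in the numbering of the libraries. Whether they were handled together was not tested. The deviations of same-numbered lysates from their group means had a correlation of 0.331 (early) and 0.142 (late). Both were above the values between fractions within lysates, 0.0864 in WT and 0.0503 in cKO. Quantile normalization turned the Fabp7 change in late against early to 0.062 over both genotypes, 0.092 in WT and 0.032 in cKO. Voom turned the S100b change between genotypes on lysate means to 0.12. Leaving out each library turned these uncalled values (log2 ranges). Fabp7 in late against early in WT ran from -0.34 to 0.029. In early polysomes, cKO against WT ran from -0.013 to 0.32 for S100b, -0.0040 to 0.15 for Npy, -0.58 to 0.067 for Apoe and -0.47 to 0.10 for Frzb, and in late polysomes from -0.24 to 0.056 for Frzb. The interaction ran from -0.33 to 0.037 for Fabp7, -0.16 to 0.086 for Sox10 and -0.19 to 0.38 for Frzb. Lysate means ran from -0.36 to 0.053 for S100b, -0.35 to 0.0051 for Npy, -0.28 to 0.096 for Apoe and -0.31 to 0.036 for Frzb. The cause of these turns was not tested. Where an arm kept 1 library, its spread was taken from the other groups. Over all genes, cKO against WT called 7 genes in early polysomes (0 with only 4 libraries, 11 with no filter, 12 with voom, 0 to 9 when a library was left out) and 2 in late (1 with only 4 libraries or the pseudocount of 0.1, 4 with no filter, 5 with no trend, 15 with voom, 0 to 13). On lysate means it called 1 (0 with no filter or no trend, 79 with the block, 58 with voom, 1 to 6), and the interaction called 1 (6, 2, 1, 0, 1 to 7 in the order no filter, no trend, block, voom, library left out). Late against early in WT called 8827 genes (5820 to 8973 when a library was left out). TPM as deposited moved the median of all genes in late against early from -0.014 to 0.087. Npy, at 21 to 90 inferred reads per library, had the least depth of the 6.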

Other observations

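Markers of the cells around the ensheathing glia also split by fraction, over both genotypes. All 7 sustentacular cell markers rose in late polysomes (median 1.26), led by Cyp2g1 (1.66), a cytochrome P450 gene of these supporting cells. Of 10 olfactory neuron markers, 5 rose and 4 fell, with Adcy3, the adenylyl cyclase gene of odor transduction, at 1.58 and Gng8, a G protein gamma subunit gene of immature neurons, at -1.50. Of 10 macrophage markers 3 rose, led by the receptor gene Csf1r (0.90), and 2 fell, Aif1 (-1.09) and the lysozyme gene Lyz2 (-0.44). Fibroblast markers rose in 5 of 7, endothelial markers in 5 of 6, gland markers in 5 of 7 and microvillous cell markers in 5 of 8 (limma, adjusted p under 0.05), and without the WT early library of lysate 2 these 4 counts were 4, 3, 4 and 4.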
